A study of Mus musculus with 2 samples.

Results

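Areg, Ereg, Hbegf, Tgfa, Igf1, Pdgfa, Pdgfb, Pdgfc, Osm and Hgf, 10 genes for secreted growth factors with known roles in tissue repair and fibrosis, were chosen by name and read in every leukocyte class of naïve and bleomycin (BLM)-injured mouse lung. They are 10 of the 24785 genes with a UMI (a unique molecular identifier, which counts 1 captured RNA molecule) in either library. The data were 2 single-cell RNA-seq libraries of living CD45+ cells sorted from lungs of wild-type C57BL/6N mice, CD45 being the surface phosphatase carried by leukocytes. One library came from lungs at day 15 after intratracheal BLM (50 µg in 50 µl PBS, age- and sex-matched mice of 10 to 16 weeks as the study's methods give for the model) and the other from naïve lungs, which had received no treatment. Each was a pool of sorted cells from 3 mice in equal number, so each group was 1 library, no difference between groups could be tested, and library, processing batch and injury cannot be told apart.

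Growth factors of this kind pass from leukocytes to epithelium and stroma. Amphiregulin (Areg), epiregulin (Ereg), HB-EGF (Hbegf) and TGF-alpha (Tgfa) are made as membrane proteins, are shed by proteases such as ADAM17 and bind the EGF receptor. IGF-1 (Igf1) acts on IGF1R as a survival and growth factor, the PDGF chains (Pdgfa, Pdgfb, Pdgfc) bind PDGF receptors on mesenchymal cells, oncostatin M (Osm) is a cytokine of the IL-6 family that signals through gp130 with OSMR or LIFR, and HGF (Hgf) binds MET on epithelium.

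After filtering, 4390 BLM cells and 3807 naïve cells were kept, with 21192094 and 16889658 UMIs and medians of 2380 and 2701 UMIs per cell. The libraries shared 22 cell barcodes. Cells were clustered with the 10 genes left out of the clustering, and a class carries the name of the cell type whose markers it showed, which stands for a type-like class throughout. One point bears on every macrophage value: the alveolar macrophage (AM) class (489 BLM and 585 naïve cells) was formed by integration. Clustered without it, all 489 BLM cells of the class lay in a cluster led by Mmp12, Spp1 and Arg1 (936 BLM and 29 naïve cells), and 581 of the 585 naïve cells in one led by Fabp1, Krt79 and Cidec (0 BLM and 622 naïve cells). In the AM class Chil3 stood at 10186 CPM (UMIs of a gene as a share of all UMIs of the cells summed, scaled to a total of 1e+06) in BLM and 11348 CPM in naïve cells, Siglecf at 82.1 and 338.6 CPM, and Spp1 at 5913 and 240.1 CPM. For each of the 9 genes with enough UMIs the AM value therefore stands with that of all macrophage classes pooled. The interstitial or recruited macrophage (IM) class (468 and 117 cells) held C1qa at 1296 and 1463 CPM. It too was divided without integration: 383 of its 468 BLM cells but 22 of its 117 naïve cells lay in the cluster led by Mmp12, Spp1 and Arg1, and 82 and 67 in one led by Ccl8, Ccl12 and Cd163. Ratios within either class thus set side by side cells that mostly separated without integration. Pooled macrophage classes are the AM class, the IM class and a class of cycling cells with Lyz2. The IM class held 4697020 of their 12747253 UMIs in BLM and 734829 of 7692385 in naïve lung. Pooled ratios thus mix the levels of the classes with their shares.

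Stretches of DNA upstream of Areg and Pdgfc are printed as one example of a gene that was several-fold higher in BLM-injured lung and one of a gene at the same level in both. Both are the 250 bases before the annotated start in the RefSeq table of GRCm38.p6, on the plus strand, at chr5:91139349-91139598 for Areg and chr3:81036166-81036415 for Pdgfc. Capitals mark letters found by a search on both strands for 8 motifs. These were the AP-1 motif as TGANTCA, the CRE of cyclic AMP signalling as TGACGTCA, the STAT motif as TTCNNNGAA, the E-box of helix-loop-helix factors as CACGTG, the SP1 motif as GGGCGG, the box recognised by TBP (called TATA below) as TATAAA, the C/EBP motif as TTGCGCAA and the NF-kB motif, which is given by name only.
Areg: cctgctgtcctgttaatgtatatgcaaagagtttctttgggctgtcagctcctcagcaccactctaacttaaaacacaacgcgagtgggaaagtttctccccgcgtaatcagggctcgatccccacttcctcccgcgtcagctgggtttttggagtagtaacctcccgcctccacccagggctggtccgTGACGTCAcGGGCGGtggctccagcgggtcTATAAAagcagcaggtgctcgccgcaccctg
Pdgfc: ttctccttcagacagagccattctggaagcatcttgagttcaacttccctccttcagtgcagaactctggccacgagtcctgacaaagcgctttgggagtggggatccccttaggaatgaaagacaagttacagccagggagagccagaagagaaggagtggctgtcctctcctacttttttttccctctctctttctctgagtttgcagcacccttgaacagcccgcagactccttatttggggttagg
The Areg window held a CRE 61 to 54 bases before the start, an SP1 match at 52 to 47 and a TATA match at 31 to 26. Of 32851 windows of the same length, 1.55% held the CRE letters, 32.7% SP1 and 12.4% TATA. The Pdgfc window held none of the 8 (shares of all windows for the others were 6.75% for AP-1, 7.02% for STAT, 6.02% for E-box, 0.164% for C/EBP and 17.6% for NF-kB). Of genes not printed, Hgf, also higher in BLM, held none of the 8 in either of its 2 windows. Igf1, higher in BLM too, held 1 AP-1 and 1 NF-kB match and no CRE, SP1 or TATA. Pdgfa held SP1 matches in both of its windows, and Tgfa held 2. The Igf1 window, both Pdgfa windows and window 2 of Hgf overlapped annotated exons of their own gene, unlike the windows of Areg and Pdgfc. Whether such letters go with the level of a gene was not tested. A match describes letters and not binding, and GC content was 57.2% for Areg and 50.8% for Pdgfc against a median of 52.4%. In GRCm38, Areg spans chr5:91139599-91148432 and Ereg chr5:91074622-91093646, both on the plus strand, and Osm spans chr11:4236420-4241026.

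Over all kept cells, 7 of the 9 genes with enough UMIs were at least 2-fold higher in the BLM library and 0 were 2-fold lower. Among all 13550 genes with 20 or more UMIs over both libraries, 5.14% were 2-fold higher and 6.73% 2-fold lower. A gene counted as 2-fold higher or lower by its ratio alone. All intervals are 95% intervals that cover counting error only, not the spread between cells, mice or library preparations. They treat UMIs as independent, so they are too narrow where a few cells held many of the UMIs of a gene. Igf1 stood at 200.8 CPM in the BLM library and 25.04 CPM in the naïve library, 8.02-fold higher (7.25 to 8.88). Pdgfa stood at 21.3 and 3.37 CPM (log2 ratio 2.66, 2.26 to 3.08), Areg at 159.5 and 38.2 CPM (2.06, 1.94 to 2.19) and Ereg at 22.0 and 5.80 CPM (1.93, 1.61 to 2.25). Hgf stood at 29.2 and 8.64 CPM (1.76, 1.49 to 2.03), Osm at 963.7 and 310.5 CPM (1.63, 1.59 to 1.68) and Hbegf at 33.5 and 12.4 CPM (1.43, 1.21 to 1.66). Pdgfb, at 13.9 and 14.2 CPM (−0.02, −0.27 to 0.23), and Pdgfc, at 10.3 CPM in both (0.00, −0.29 to 0.30), were within counting error of each other in the 2 libraries. Tgfa had 7 UMIs in the BLM library and 10 in the naïve library, too few to compare.

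**Figure D1:**
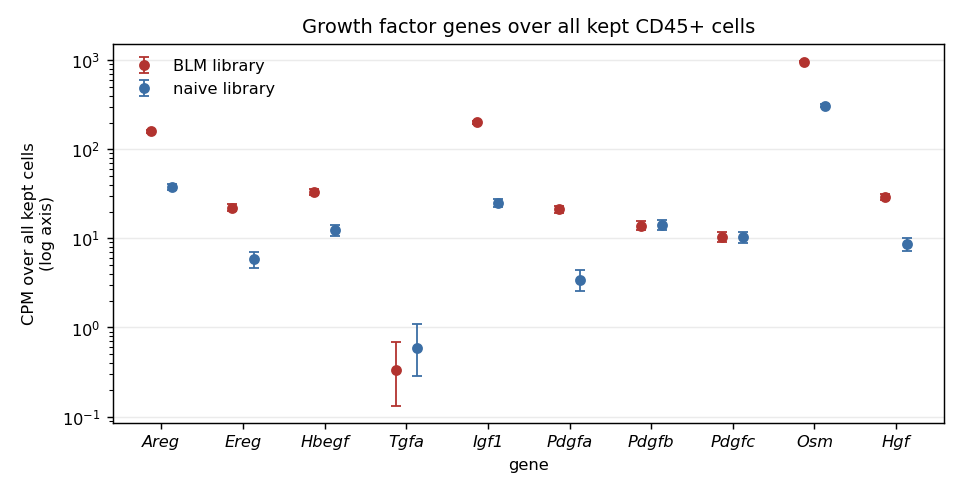
Level of each of the 10 genes over all kept CD45+ cells in CPM on a log axis, with the BLM library in red and the naïve library in blue, and bars giving 95% counting intervals of 1 library each. Igf1 is separated most (200.8 against 25.04), Pdgfb (13.9 against 14.2) and Pdgfc (10.3 in both) overlap, and Tgfa lies below 1 in both.

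In bulk sums of this kind, more cells of a producing class and more RNA per cell cannot be told apart, so each gene was also read within classes. Macrophage classes made up 24.1% of BLM cells and 20.3% of naïve cells but 60.2% and 45.5% of the UMIs, and the mean over cells of the per-cell CPM gave lower ratios for Areg (1.02), Pdgfa (1.86) and Hgf (0.99, no longer past 2-fold). When the naïve level of each class was combined with the BLM share of UMIs of each class, a calculation added after seeing the data, Hbegf came to 51.6 CPM, above the 33.5 CPM measured in the BLM library. The same calculation gave 51.0 CPM for Areg, 61.8 CPM for Igf1, 9.07 CPM for Pdgfa, 347.5 CPM for Osm, 4.96 CPM for Ereg and 8.62 CPM for Hgf. In the reverse exchange, with BLM class levels and naïve shares, Hbegf came to 16.2 CPM, Areg to 154.7 CPM, Igf1 to 118.4 CPM, Pdgfa to 13.6 CPM, Osm to 865.4 CPM, Ereg to 23.1 CPM and Hgf to 25.6 CPM. For Hbegf and no other of these 7 genes the BLM shares with naïve levels gave a higher value than the BLM levels with naïve shares. The same order held for Pdgfb (19.3 and 10.1 CPM) and Pdgfc (11.2 and 7.30 CPM), which were level over all cells.

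**Figure D2:**
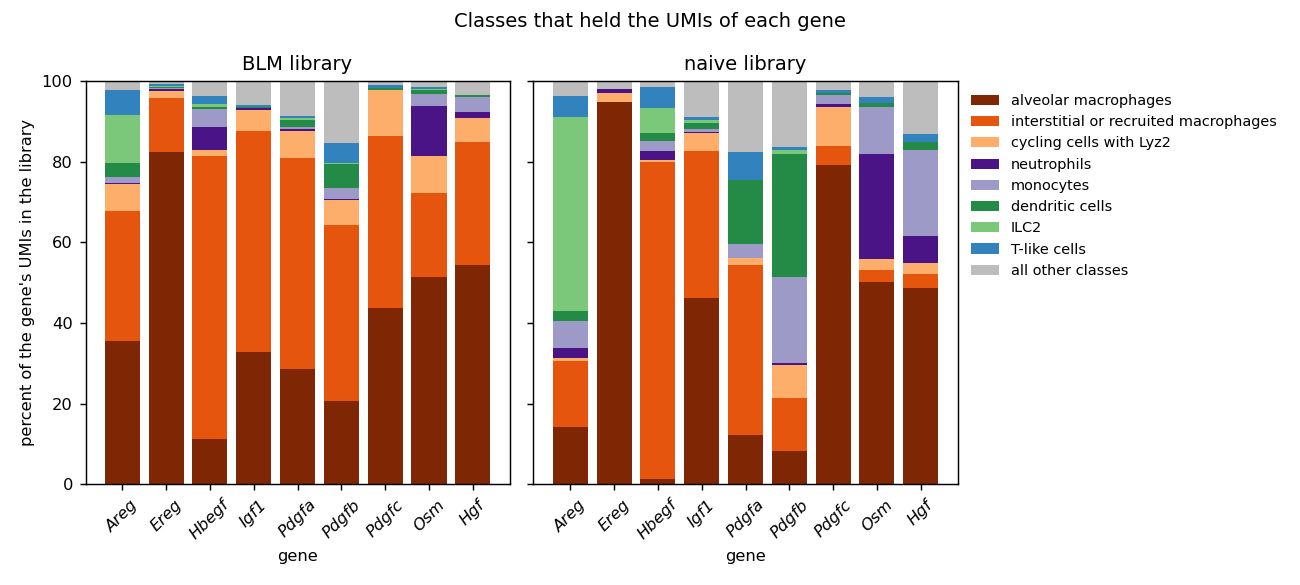
Percent of the UMIs of each gene that lay in each group of classes, for 9 genes (Tgfa, with 7 and 10 UMIs, is left out), BLM library on the left and naïve library on the right, each bar adding to 100%. ILC2 held 47.9% of Areg UMIs in the naïve library and 12.0% in the BLM library, while the macrophage classes held 31.5% and 74.5%.

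Areg, the EGFR ligand produced by type 2 lymphocytes and Tregs among other cells, had its highest class level in ILC2 in both libraries, at 3113.5 CPM in BLM (2818 to 3432, 38 cells) and 1164.6 CPM in naïve lung (1038 to 1302, 115 cells). The log2 ratio within ILC2 was 1.42 (1.20 to 1.64), and it was 0.66 when cells were classed one by one from their markers and 0.55 for shares of cells with a UMI at equal depth. Areg UMIs were found in 63.2% of BLM and 47.0% of naïve ILC2 (51.6% and 35.1% after thinning each cell to 1000 UMIs), against 0.692% and 0.679% of B cells, taken as the background from free RNA. ILC2 was also smaller in the BLM library, at 0.866% of cells against 3.02%.

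The order of Areg levels in BLM-injured lung ran from ILC2 to Tregs (563.6 CPM), the IM class (233.1 CPM), the AM class (186.7 CPM) and cycling cells with Lyz2, a myeloid gene (137.2 CPM), and neighbours among the first 5 did not overlap in their counting intervals. In the naïve library ILC2 was followed by the IM class (144.3 CPM) and gamma delta T cells (67.5 CPM), and from there on neighbouring classes overlapped. Tregs gave 134 Areg UMIs in 73 BLM cells and 7 in 24 naïve cells (92.0 CPM), too few naïve cells to compare or to rank. Over all T-like cells, Tregs included, Areg stood at 99.2 CPM in BLM and 18.7 CPM in naïve lung (2.41, 1.88 to 2.98).

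Macrophage classes held 2518 of the 3381 Areg UMIs in BLM and 203 of the 645 in naïve lung. In the AM class Areg stood at 186.7 CPM in BLM, on 1201 UMIs, and at 15.1 CPM in naïve cells, on 92. The log2 ratio was 3.63 (3.32 to 3.95), and 39.7% of BLM and 6.15% of naïve cells held a UMI (12.7% and 1.35% at equal depth). Pooled over the macrophage classes the level was 197.5 and 26.4 CPM (2.90, 2.70 to 3.12). In the IM class it was 233.1 and 144.3 CPM, a ratio of 0.69 (0.40 to 0.99). This ratio was 1.84 with cells classed one by one. In the unintegrated cluster led by Ccl8, Ccl12 and Cd163 it was −0.46 (−1.27 to 0.37, 46.3 and 63.7 CPM), which did not differ from 0 beyond counting error. The size of the ratio within IM cells thus depended on how they were grouped. The UMIs were unevenly spread among cells: the 10% of BLM AM cells with most Areg held 66.4% of its UMIs, and the 10% with most Osm held 31.1% of Osm UMIs. Areg was also higher in cDC2 (110.5 and 18.4 CPM, 2.58, 1.66 to 3.63; 0.37 when clustered without integration), in nonclassical monocytes (31.8 and 6.48 CPM, 2.30, 0.91 to 3.83) and in cycling cells with Lyz2 (137.2 and 5.73 CPM, 4.58, 3.34 to 6.22). Classical monocytes did not differ beyond counting error (58.4 and 42.4 CPM, 0.46, −0.25 to 1.18). Neutrophils held 12 Areg UMIs in BLM and 15 in naïve lung, and 14 of those 15 were in 1 cell, so the ratio of −1.22 (−2.45 to −0.03) turned to 2.42 without the highest cell of each library.

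**Figure D3:**
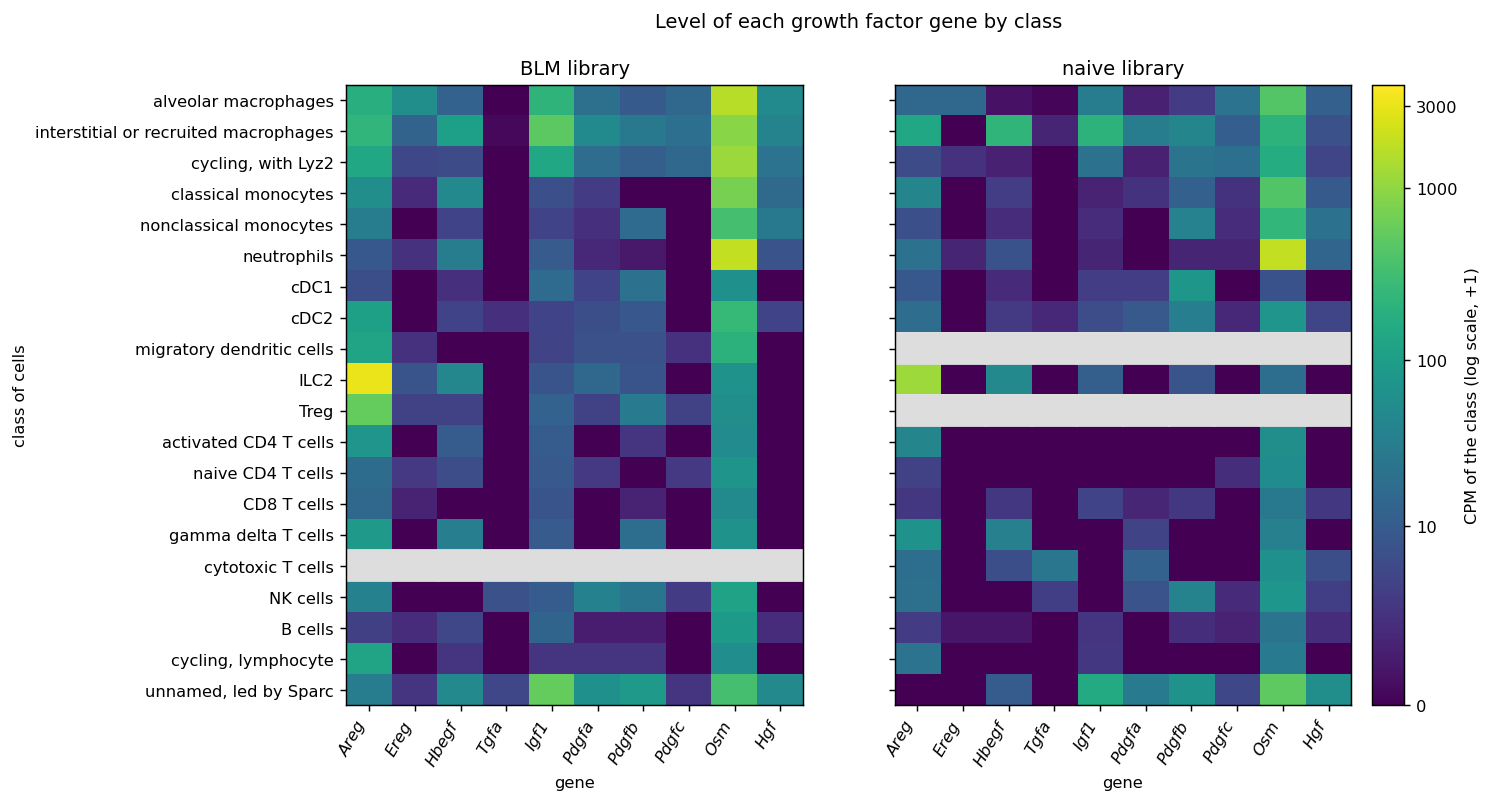
Level of each gene (columns) in each class of cells (rows) in CPM on a log colour scale, BLM library on the left and naïve library on the right, with grey for classes of fewer than 30 cells in that library. Areg is brightest in ILC2 in both panels (3113.5 and 1164.6), Osm is bright over the myeloid rows, and Igf1, Hbegf and Pdgfa in the macrophage rows and in the class led by Sparc.

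Ereg, a further EGFR ligand encoded next to Areg, lay almost wholly in macrophages: 97.4% of its UMIs in the BLM library and 96.9% in the naïve library. The AM class stood first in both, at 59.9 CPM (54.0 to 66.1) in BLM and 15.3 CPM (12.3 to 18.7) in naïve cells, and its interval did not overlap that of the class ranked next. The log2 ratio in the AM class was 1.97 (1.64 to 2.31), and 1.53 (1.21 to 1.87) over the pooled macrophage classes. A single naïve cell held 34 of the 98 naïve Ereg UMIs, and leaving out the highest cell of each library raised the ratio over all cells from 1.93 to 2.46. In the IM class Ereg had 62 UMIs in BLM and 0 in naïve cells. Set against a floor of 3 UMIs for the naïve class it was 3.23-fold higher, and the lower end of the counting interval was 2.55-fold. An antisense gene overlaps exons of Ereg, and the sources used here do not state whether reads were counted by strand.

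Hbegf, an EGFR ligand that also acts as a membrane-bound precursor, was mainly an IM gene: this class held 70.2% of its UMIs in BLM and 78.5% in naïve lung. Within the class it was lower in BLM, at 106.0 CPM (498 UMIs, 19.0% of 468 cells) against 223.2 CPM (164 UMIs, 29.9% of 117 cells), a log2 ratio of −1.07 (−1.33 to −0.81). Hbegf was the only gene of the 10 that was 2-fold lower in the IM class, beside 4 that were 2-fold higher (Ereg, Igf1, Osm and Hgf) among 9 compared. In all, 7.63% of 9538 genes were 2-fold higher in that class and 10.9% lower. The higher Hbegf level over all BLM cells thus went with a lower level in the class that held most of it, while the IM class grew from 3.07% to 10.7% of cells.

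Finer clusters of the macrophage classes, read after seeing the data, gave Hbegf ratios of opposite sign. In a cluster led by Ccl12, Pf4 and Folr2 (271 BLM and 122 naïve cells) Hbegf stood at 85.2 and 163.2 CPM (−0.94, −1.23 to −0.65). This cluster mixed the classes, with 197 BLM and 68 naïve cells of the IM class and 74 and 54 of the AM class. In a cluster led by Mmp12, Ccl24 and Retnla (274 and 51 cells) it stood at 95.9 CPM with 250 UMIs and 8.23 CPM with 3 UMIs, a ratio of 3.54 (1.98 to 5.83). Hbegf was thus at like levels in both BLM clusters but lay, in naïve lung, almost wholly in the first. Clustered without integration, a group led by Ccl8, Ccl12 and Cd163, genes of resident interstitial macrophages (82 and 67 cells), held 277.6 and 431.8 CPM (−0.64, −0.95 to −0.33).

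Several classes other than IM had more Hbegf in BLM. The AM class held 80 UMIs in BLM and 3 in naïve cells (12.4 and 0.493 CPM, 4.66, 3.06 to 6.96), classical monocytes 29 and 3 (48.4 and 3.53 CPM, 3.78, 2.09 to 6.14) and neutrophils 42 and 5 (31.3 and 6.95 CPM, 2.17, 0.84 to 3.87). B cells, taken as the background, held 5 Hbegf UMIs in BLM and 1 in naïve lung (4.76 and 0.654 CPM). The naïve AM level was thus not above background, and the background was itself higher in BLM. In the pooled macrophage classes the ratio was 1.08 (0.83 to 1.33), and 0.70 with likely doublets kept, since 61 of 270 naïve Hbegf UMIs lay in cells left out as likely doublets. T-like cells, at 6.68 and 6.03 CPM (0.15, −1.10 to 1.43), did not differ beyond counting error, and ILC2 held 6 and 13 UMIs, at 46.0 and 49.0 CPM, too few to compare. Tgfa, the remaining EGFR ligand, gave at most 2 UMIs in any class of BLM cells and at most 4 in naïve cells (cytotoxic T cells).

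**Figure D4:**
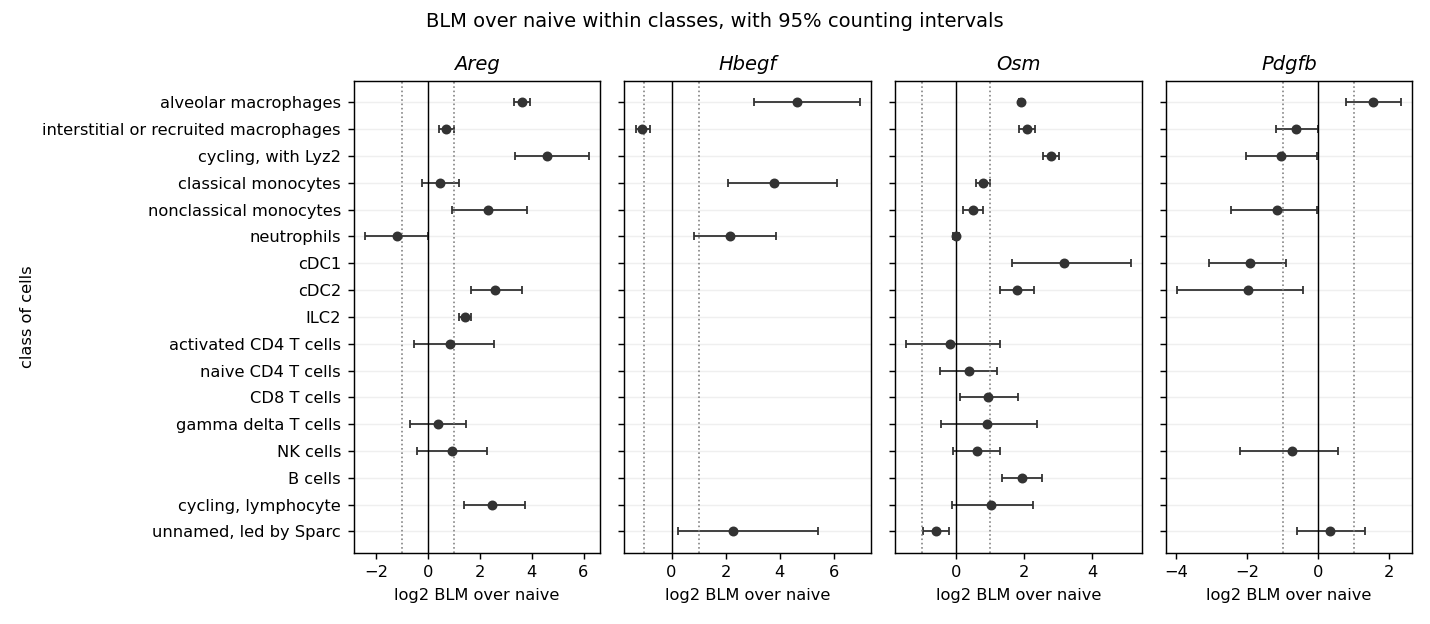
Log2 ratio of BLM over naïve for Areg, Hbegf, Osm and Pdgfb in each class with 30 or more cells and 20 or more UMIs, with bars for 95% counting intervals, a solid line at 0 and dotted lines at 2-fold. Hbegf is at −1.07 in the interstitial or recruited class and at 4.66 in the alveolar class, Osm is at 0.00 in neutrophils, and 5 of the Pdgfb points lie below 0 with their whole interval.

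In the AM class as a whole, 8 of the 9 genes compared were 2-fold higher in BLM and 0 were 2-fold lower, where 6.11% of 10550 genes were higher and 9.94% lower. Over the pooled macrophage classes 7 of 9 were higher and 0 lower, beside 6.05% and 10.3% of 11527 genes. Among cycling cells with Lyz2 (101 and 71 cells), 5 of 7 were higher and 1, Pdgfb, lower, beside 5.08% and 10.2% of 8512 genes. These counts share cells and are not independent of each other.

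Igf1, made by macrophages and fibroblasts in lung, was at 495.8 CPM (476 to 516, 2329 UMIs) in the BLM IM class and 209.6 CPM (178 to 245, 154 UMIs) in the naïve one, a log2 ratio of 1.24 (1.01 to 1.49; 0.37 with cells classed one by one). The AM class held 217.2 and 32.2 CPM, a ratio of 2.75 (2.54 to 2.98), and the pooled macrophage classes 310.3 and 48.0 CPM (2.69, 2.54 to 2.85). Cycling cells with Lyz2 held 141.5 and 21.8 CPM (2.70, 2.02 to 3.46). In BLM lung the macrophage classes held 92.9% of Igf1 UMIs and a class led by Sparc 5.40%, and every other class of 30 or more cells lay between 2.61 and 17.0 CPM, near the B-cell level of 13.3 CPM. A wider gap lay in the finer cluster led by Mmp12, Ccl24 and Retnla, with 871 UMIs (334.0 CPM) in BLM and 4 UMIs (10.97 CPM) in naïve cells, a ratio of 4.93 (3.57 to 6.81). The cluster led by Ccl12, Pf4 and Folr2, which mixed cells of the AM and IM classes, held 620.8 and 205.8 CPM (1.59, 1.38 to 1.81).

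A small class led by Sparc, Eln and Igfbp7 (130 BLM and 61 naïve cells) stood first for Igf1 in BLM, at 557.8 CPM with an interval that overlapped that of the IM class, and was at 160.1 CPM in naïve lung, 3.48-fold higher (2.40 to 5.22). All 8 fibroblast and all 7 endothelial markers of the lists used were detected in it, and these are types that a CD45+ sort is meant to remove. Summed fibroblast markers stood at 30319 CPM in its BLM cells and 14836 CPM in its naïve cells, and endothelial markers at 1877 and 3311 CPM, so the makeup of the class moved with Igf1 and its part in the Igf1 ratio was not tested. It also stood first for Pdgfb (87.3 CPM) and Pdgfa (63.1 CPM) in BLM, the latter overlapping the IM class. Its share of Igf1 UMIs was 5.40% in BLM and 7.57% in naïve lung, and over the cells outside the macrophage classes, this class included, Igf1 stood at 35.6 and 5.87 CPM.

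**Figure D5:**
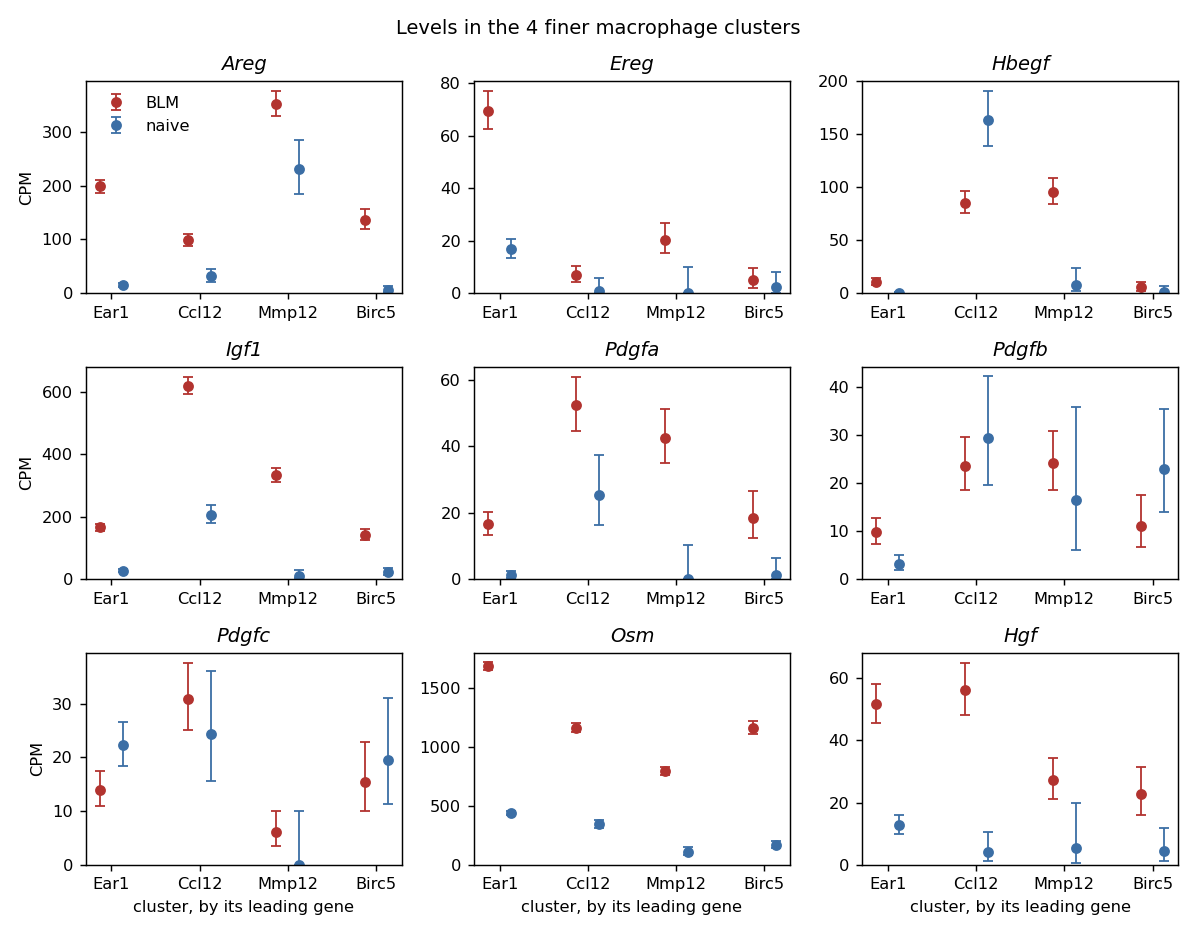
Level of 9 genes in CPM in the 4 finer macrophage clusters, each named on the horizontal axis by its leading gene, BLM in red and naïve in blue with 95% counting intervals, on linear axes that start at 0. Hbegf is higher in the naïve cells of the Ccl12 cluster (163.2 against 85.2) and in the BLM cells of the Mmp12 cluster (95.9 against 8.23), and Osm is higher in BLM cells of all 4. The Ccl12 cluster mixes cells of the AM and IM classes.

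The PDGF genes did not move alike. Pdgfa, a chain that acts on fibroblasts and smooth muscle through PDGFR-alpha, was at 20.1 CPM (129 UMIs) in the BLM AM class and 1.15 CPM (7 UMIs) in the naïve one, a log2 ratio of 4.12 (3.04 to 5.47), and 2.90 (2.38 to 3.46) in the pooled macrophage classes. In the IM class it was 50.2 and 32.7 CPM (0.62, 0.01 to 1.29), and in the unintegrated cluster led by Ccl8, Ccl12 and Cd163 it was 64.0 and 66.4 CPM (−0.05, −0.79 to 0.72). The naïve level over all cells rested on 57 UMIs. An antisense gene overlaps exons of Pdgfa.

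Pdgfb, the chain that recruits pericytes through PDGFR-beta, was level over all cells but not within classes. It was lower in BLM in cDC1 (10 and 45 UMIs, 21.2 and 80.1 CPM, −1.92, −3.07 to −0.91), in cDC2 (4 and 22 UMIs, 8.50 and 33.8 CPM, −1.99, −3.99 to −0.43) and in nonclassical monocytes (8 and 41 UMIs, 17.0 and 37.9 CPM, −1.16, −2.47 to −0.05). Cycling cells with Lyz2 held 11.1 and 22.9 CPM (−1.04, −2.05 to −0.05), and the IM class 27.5 and 42.2 CPM with an interval that reached 0 to the second decimal (−0.62, −1.19 to −0.00). The AM class went the other way, at 9.48 and 3.29 CPM (61 and 20 UMIs, 1.53, 0.78 to 2.34). Outside the macrophage classes Pdgfb was lower in BLM (−0.83, −1.22 to −0.44), and within them higher (0.82, 0.43 to 1.23). Macrophages held 70.5% of its UMIs in BLM and 29.7% in naïve lung, beside 60.2% and 45.5% of all UMIs. In the exchange of class shares, Pdgfb came to 19.3 CPM with naïve levels and BLM shares and 10.1 CPM with BLM levels and naïve shares. Measured levels over all cells were 13.9 CPM in BLM and 14.2 CPM in naïve lung. In naïve lung cDC1 stood first, and its interval overlapped that of the class led by Sparc.

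Pdgfc, a chain released by proteolysis that binds PDGFR-alpha, lay largely in macrophages, which held 97.7% of its UMIs in BLM and 93.7% in naïve lung. In the AM class it was lower in BLM, at 14.9 CPM (96 UMIs) against 22.7 CPM (138 UMIs), a log2 ratio of −0.60 (−0.99 to −0.22), and it was −0.34 (−0.64 to −0.03) in the pooled macrophage classes. The IM class held 19.8 and 10.9 CPM (0.86, −0.18 to 2.12), which did not differ beyond counting error. In neither library did the 3 macrophage classes at the head of its order separate from the next in their intervals. Pdgfc was 1 of 2 genes, with Pdgfb, that were not 2-fold higher in the pooled macrophage classes.

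Osm was found in the largest share of cells among the 10 genes, 50.5% in BLM and 33.4% in naïve lung. Neutrophils stood first in both libraries and held the same level, 1888.0 CPM (1815 to 1963, 2532 UMIs) in BLM and 1886.9 CPM (1788 to 1990, 1357 UMIs) in naïve lung, a log2 ratio of 0.00 (−0.09 to 0.10). The AM class, by contrast, stood at 1634 CPM with 10511 UMIs and at 432.7 CPM with 2633 UMIs. The log2 ratio was 1.92 (1.86 to 1.98), with 95.3% and 70.8% of cells holding a UMI (65.1% and 25.2% at equal depth). The IM class held 902.1 and 213.7 CPM (2.08, 1.85 to 2.32), cycling cells with Lyz2 1161 and 168.4 CPM (2.79, 2.54 to 3.04) and the pooled macrophage classes 1304 and 381.8 CPM (1.77, 1.72 to 1.83). Each of the 4 finer macrophage clusters was higher in BLM, the one led by Mmp12, Ccl24 and Retnla at 796.0 and 112.4 CPM (2.82, 2.38 to 3.31).

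Monocytes moved less for Osm: 717.7 and 416.5 CPM in classical (0.79, 0.58 to 0.99) and 339.0 and 237.8 CPM in nonclassical monocytes (0.51, 0.22 to 0.80). cDC2 held 255.1 and 73.7 CPM (1.79, 1.30 to 2.31). B cells, which gave the background, held 89.5 and 23.5 CPM in 14.7% and 4.48% of cells, and lymphocyte classes of the BLM library lay between 52.5 and 116.7 CPM, so no Osm level of lymphocytes was read as expression. In the class led by Sparc, Osm was 342.0 and 510.2 CPM (−0.58, −0.96 to −0.20), but 9 naïve cells with basophil markers had fallen into it and held 92 of its 102 naïve Osm UMIs. Without cells of that gate the ratio was 2.42 (1.49 to 3.51). Genes leading the gated cells of both libraries included the mast cell markers Mcpt4, Tpsb2 and Cma1, so the gate does not part basophils from mast cells.

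Hgf, the ligand of MET, was at 52.4 CPM (337 UMIs) in the BLM AM class and 11.7 CPM (71 UMIs) in the naïve one, a log2 ratio of 2.17 (1.79 to 2.56). The IM class held 40.0 CPM with 188 UMIs and 6.80 CPM with 5 UMIs (2.56, 1.31 to 4.20), and the pooled macrophage classes 44.1 and 10.4 CPM (2.08, 1.74 to 2.44). Outside the macrophage classes Hgf did not differ beyond counting error (57 and 66 UMIs, −0.09, −0.63 to 0.45), nonclassical monocytes for example holding 27.5 and 21.3 CPM. Macrophages held 90.8% of Hgf UMIs in BLM and 54.8% in naïve lung. In both libraries the class led by Sparc was among the first ranked, at 48.5 and 60.03 CPM, but cells with basophil markers held 6 of its 20 BLM and 7 of its 12 naïve Hgf UMIs, and without them it stood at 34.8 and 29.5 CPM.

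Genes most like each member were ranked by Pearson's r of log2(CPM + 10) over 39 points, each 1 class in 1 library with 30 or more cells, among 10913 genes. The points of 1 library share its free RNA and depth, so r is a description. Areg lay closest to Pim3 (0.77), Cish (0.77) and Lif (0.76), of which Cish is a target gene of cytokine-activated STAT5. Osm lay closest to Ier3 (0.90), Pgd (0.89) and Trem1 (0.88), and Hgf to Ctsl (0.86), Thbd (0.86) and Hmox1 (0.85). Igf1 lay closest to Cd276 (0.93), C4b (0.92) and Fblim1 (0.90), and Pdgfc to Mertk (0.90), Siglec1 (0.89) and Asb4 (0.89), the first an efferocytosis receptor of macrophages. Hbegf had Stab1 (0.80), Retnla (0.70) and Fam213b (0.70), Pdgfa had Ltbp3 (0.81), Cxcl14 (0.79) and Pmp22 (0.78), Pdgfb had Zfhx3 (0.77), Cpq (0.72) and Arhgap6 (0.72), and Ereg had Creg2 (0.75), Prune2 (0.72) and Cspg4 (0.72). Among the members themselves, r was 0.78 for Igf1 with Pdgfa, 0.76 for Osm with Hgf and 0.70 for Igf1 with Hgf, while Areg and Osm gave 0.08.

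The partners of these growth factors were read from a list of 59 receptors, further ligands, processing enzymes and inhibitors, of which 58 were in the tables. Over all kept cells 10 of 45 with enough UMIs were 2-fold higher in BLM and 1 lower, beside 5.14% and 6.73% of all genes. Of the receptors, 2 of 11 were higher: Osmr, the specific receptor chain for oncostatin M (72 and 7 UMIs, 3.04, 1.92 to 4.40), and Pdgfrb (33 and 6 UMIs, 2.13, 0.86 to 3.68). Nrg1, an ErbB3 and ErbB4 ligand, stood at 14.1 and 0.414 CPM (5.09, 4.03 to 6.42), Igfbp5, an IGF-binding protein, at 26.4 and 2.07 CPM (3.67, 3.18 to 4.21) and Igfbp7 at 53.0 and 13.6 CPM (1.96, 1.75 to 2.17). Nrg4 was the gene of the list that was lower (2.78 and 5.62 CPM, −1.01, −1.51 to −0.53). Few BLM UMIs of Osmr (7 of 72), Pdgfrb (5 of 33), Igfbp5 (20 of 559) and Igfbp7 (50 of 1123) lay in the macrophage classes. For Nrg1 it was 219 of 299. Igfbp7 was also a leading gene of the class led by Sparc, which carried fibroblast and endothelial markers. Which other classes held the UMIs of these genes was not read.

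In the pooled macrophage classes, 12 of 34 genes of the list were higher and 4 lower, beside 6.05% and 10.3% of all genes, so the lower count was near the background. Nrg1 (17.2 and 0.650 CPM, 4.72), Igf2r, which clears IGF-2 (37.5 and 3.25 CPM, 3.53), Fgf2 (38 UMIs and 1 UMI, 4.52, 1.95 to 9.86) and Met, the receptor for HGF (7.53 and 0.910 CPM, 3.05), were among the higher. Il6st, which encodes gp130 (30.7 and 78.8 CPM, −1.36), Nrg4 (−1.41), Spint2, an inhibitor of HGF activation (3.61 and 9.62 CPM, −1.41), and Rhbdf1, a partner of ADAM17 (−1.05), were the lower ones. Osm and Il6st thus moved in opposite directions in these cells.

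Within the AM class, 12 of 29 genes of the list were higher and 3 lower, beside 6.11% and 9.94% of all genes, the lower count again near the background. Among the higher were Socs3, a feedback inhibitor downstream of gp130, at 60.5 and 9.04 CPM (2.74, 2.33 to 3.18), Igf2r at a log2 ratio of 4.02, Nrg1 at 3.59 and Fgf2 at 4.44 (23 UMIs and 1 UMI, 1.82 to 9.81). Socs3 went the other way in the IM class (178.2 and 352.5 CPM, −0.98, −1.19 to −0.78), and in the pooled macrophage classes it was at 103.6 and 48.5 CPM (1.09, 0.93 to 1.26). The lower ones were Il6st (29.1 and 85.0 CPM, −1.55), Rhbdf1 (−1.51) and Spint2 (−1.03). In the IM class 7 of 27 were higher and 4 lower, beside 7.63% and 10.9% of all genes. Nrg1 with 159 UMIs in BLM and 0 in naïve cells, Spint1 at 57.9 and 9.53 CPM (2.60), Igf2r at 61.1 and 12.2 CPM (2.32) and Cd9, a partner of membrane-bound HB-EGF, at 908.9 and 329.3 CPM (1.46) were higher. Igfbp4 (94.7 and 447.7 CPM, −2.24), Lifr (25.8 and 95.3 CPM, −1.89), Egfr (12 and 10 UMIs, −2.41, −3.75 to −1.04) and Rhbdf1 (−1.54) were lower.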

How the data were processed

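The 2 libraries were made with the BD Rhapsody whole transcriptome kit. Per the file headers, the deposited tables hold UMI counts per cell, corrected for recursive substitution errors and not normalized, from the BD WTA Rhapsody Analysis Pipeline 1.8 with GRCm38 and GENCODE vM19, and the analysis dates of the 2 libraries differ. The kit counts 3′ ends, so levels of short and long genes were not compared. The study's own cell filter was applied in other software with thresholds not given in the sources used here. The 10 genes and the gene lists were chosen with earlier results of these data known.

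Cells needed 200 genes and no more than 15% of UMIs from mt- genes to be kept (4526 of 4714 BLM, 3925 of 4062 naïve), and the 3% with the highest Scrublet scores in each library were left out as likely doublets (136 and 118). The automatic Scrublet threshold, which marked 8 and 61, was not used. Libraries were integrated and clustered in Seurat 5.3.0 (R 4.3.3; 2000 variable genes without the 10 members, 30 dimensions, resolution 0.5; T-like cells again with 20 dimensions) and named from marker lists. A class of plasma cells was not compared, since its BLM cells held little Jchain. UMIs were summed per class and library and given as CPM with exact Poisson intervals. Ratios carry exact conditional intervals and shares of cells Clopper-Pearson intervals (scipy 1.17.1, Python 3.11.15), and for a class without any UMI 3 UMIs served as the floor. Ratios were made where both libraries held 30 or more cells and together 20 or more UMIs. The calculations were tested on simulated counts with known ratios. Those counts were drawn without spread between cells, as the intervals assume, so the test checked the arithmetic and not that assumption.

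All 10 members were named. Of the list of partners, the 4 highest and 4 lowest of those past 2-fold were named in each comparison by the end of the interval nearer 0, and for each member with 100 or more UMIs the 3 genes with the highest r. Pdgfrb was named after its value was seen. Alternatives were the mitochondrial limit, cell filter, doublets, clustering, class naming, scaling (TMM from edgeR 4.0.16), depth, UMI minimum and removal of the highest cell. The pooled macrophage classes, the finer and unintegrated clusters, the class led by Sparc without the basophil gate and the exchange of class shares were added after seeing the data. Upstream windows of Ereg, Pdgfb, Osm and Hbegf were not used here.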

Additional observations from a re-analysis of the deposited data

Results flagged for a closer look

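Several genes had ratios of opposite sign in different classes, each with a whole counting interval on its side of 0. With 1 library per group, these differences between classes were not tested. Areg had a log2 ratio of BLM over naïve of −1.22 in neutrophils, where 14 of 15 naïve UMIs lay in 1 cell, against 3.63 in the AM class and 0.69 in the IM class. Hbegf was at −1.07 in the IM class and at 4.66 in the AM class, the latter on 3 naïve UMIs, a level not above that of naïve B cells. Osm was at −0.58 in the class led by Sparc, where 9 naïve cells with basophil markers held 92 of 102 UMIs, against 1.92 in the AM class and 2.08 in the IM class. Pdgfb was at 1.53 in the AM class, against −0.62 in the IM class, −1.16 in nonclassical monocytes, −1.99 in cDC2, −1.92 in cDC1 and −1.04 in cycling cells with Lyz2.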

How the results depend on the processing

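Over all kept cells, no alternative changed the direction of a gene 2-fold higher in BLM. The mean over cells of the per-cell CPM gave log2 ratios of 1.02 for Areg, 1.14 for Hbegf, 2.55 for Igf1, 1.86 for Pdgfa, −0.38 for Pdgfb, 1.18 for Osm and 0.99 for Hgf. TMM scaling shifted every ratio by 0.16 over all kept cells (0.20 in the AM class, 0.24 in the IM class) and gave 2.22 for Areg, 3.16 for Igf1 and 1.79 for Osm. Hbegf came to 1.12 without a cell filter and 1.11 with doublets kept, and Ereg to 2.46 without the highest cell. With no minimum on UMIs, members 2-fold lower numbered 1 in the AM class, 2 in the IM class and 1 in the pooled macrophage classes (in place of 0, 1 and 0), and with a minimum of 10 UMIs, 2 partner genes were lower over all kept cells in place of 1. Of 620 values of class ratios under alternatives, for 72 ratios, 556 stayed within the counting error of the reported value, 61 moved beyond it and 3, of ratios past 2-fold, reversed. Of the 61 that moved, 7 also changed sign, all for ratios under 2-fold (Osm in the class led by Sparc, to 2.42 without cells with basophil markers; Areg, Pdgfa and Pdgfb in the IM class). Areg in neutrophils turned from −1.22 to 2.42 without the highest cell and to 1.04 for shares at equal depth, and Hbegf in the IM class from −1.07 to 3.54 in the cluster led by Mmp12, Ccl24 and Retnla. The cause of the other moves was not tested. Leaving out a replicate was not possible with 1 library per group. No paired analysis was possible because each group was 1 library. Low UMI counts limited some ratios: Pdgfa, Hgf, Hbegf, Pdgfc and Ereg each rested on fewer than 10 naïve UMIs in the AM or the IM class. For Ereg in the IM class the naïve count was 0.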
